A study of Mus musculus with 28 samples.

Results

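A group of 10 genes known from Sertoli cells was followed through a series of mouse testis arrays. They are the cystatins Cst9 and Cst12, Clu, Aard, Tsx, Cldn11, Ctsl and the transcription factor genes Gata4, Sox9 and Wt1. They were taken by their symbols from the platform's annotation, which gives them 17 of the 45101 probe sets and makes them 10 of 18193 genes. All 10 had a probe set that names no other gene. Clu had 4 such probe sets, Sox9 3, and Ctsl and Gata4 2 each.

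The samples were 28 one-colour arrays of testis RNA from adult male C57BL/6 mice, either GRTH null (knockout, KO) or wild type (WT). GRTH is the gonadotropin-regulated testicular RNA helicase, made by the gene Ddx25 in germ cells and Leydig cells. KO and WT spermatocytes (4 arrays each), KO and WT round spermatids (3 each) and KO and WT Leydig cells (2 each) came from centrifugal elutriation, and KO and WT total polysome RNA (3 each) from sucrose gradients of testis. Polysome RNA, of WT testis by the array titles, was also immunoprecipitated (IP), with GRTH antibody on 2 arrays and with control IgG on 2. The labels give no other treatment, no exact age and no source of the null allele. No group is labelled as Sertoli cells, so the genes were read in germ cell and Leydig cell fractions and in polysomes of all testis cells together. The series asks which testis polysomal transcripts differ without GRTH. Whether replicate arrays go back to different mice is not stated, and the p-values therefore reflect the spread between arrays, which may be technical.

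Sertoli cells are the somatic cells that line the seminiferous tubule and enclose the germ cells. They feed the germ cells, take up the residual bodies that spermatids shed, and seal the tubule with tight junctions. Many cystatins block cysteine proteases such as cathepsin L, the product of Ctsl, which Sertoli cells secrete in a stage-dependent way. Whether the products of Cst9 and Cst12 do so was not measured. Clu encodes clusterin, a secreted chaperone that is a main product of Sertoli cells, and Cldn11 encodes claudin 11, a strand protein of their tight junctions. GATA4, SOX9 and WT1 are the transcription factors that direct and maintain Sertoli cell identity. GATA4 and cathepsin L are also made in Leydig cells, and clusterin and cathepsin L in many other cell types.

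Cst9 and Cst12 lie on chromosome 2, on the plus strand of GRCm38.p6. Cst12 spans 148789365 to 148793432 and Cst9 148835147 to 148838737. A gap of 41714 bases with 2 protein-coding genes, the cystatins Cst8 and Cst13, separates them. Their profiles over the 10 groups were nearly the same as each other and as that of Tsx, a gene on the X chromosome (103409012 to 103424588). The promoters of these 3 genes are therefore shown, from 250 bases before to 50 bases after the start of the gene, 5' to 3', from the RefSeq table of that build. Capitals mark matches to GATA motifs.
Cst9, chr2:148834897-148835196, plus strand: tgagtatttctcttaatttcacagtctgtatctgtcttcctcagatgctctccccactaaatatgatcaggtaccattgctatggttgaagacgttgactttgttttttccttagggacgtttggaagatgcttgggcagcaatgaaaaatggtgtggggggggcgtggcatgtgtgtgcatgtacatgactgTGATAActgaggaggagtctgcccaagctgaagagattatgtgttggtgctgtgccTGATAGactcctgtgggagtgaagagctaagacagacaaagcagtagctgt
Cst12, chr2:148789115-148789414, plus strand: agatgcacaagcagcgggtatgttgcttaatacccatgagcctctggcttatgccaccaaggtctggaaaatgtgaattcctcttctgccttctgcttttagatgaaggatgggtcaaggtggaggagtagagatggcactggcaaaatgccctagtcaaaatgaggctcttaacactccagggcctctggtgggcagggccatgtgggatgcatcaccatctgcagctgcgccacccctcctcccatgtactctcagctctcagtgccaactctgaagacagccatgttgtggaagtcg
Tsx, chrX:103414217-103414516, plus strand: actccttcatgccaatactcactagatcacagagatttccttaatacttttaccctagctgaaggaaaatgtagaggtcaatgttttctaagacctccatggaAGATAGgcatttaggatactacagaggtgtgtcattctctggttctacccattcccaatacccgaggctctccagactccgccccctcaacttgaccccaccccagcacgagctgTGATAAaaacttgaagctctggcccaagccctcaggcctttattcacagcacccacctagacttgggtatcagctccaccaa
Tsx here uses the start that the table gives, which lies inside the longer span annotated for the gene. The motifs searched, on both strands, were a GATA motif in the spelling AGATAA, or with G last as AGATAG, or with T first as TGATAA, or with both changes as TGATAG. A SOX motif spelled AACAAT and the TATA box spelled TATAAA were searched too, and no 2 of the 3 motifs share a spelling. Of all 32851 promoters in the table, 29.8% hold a GATA match, 10.7% a SOX match and 13.6% a TATA box match. The promoter of Cst9 has TGATAA at -57 to -52 and TGATAG at -1 to 5, counted from the start with no position 0. That of Tsx has AGATAG at -147 to -142 and TGATAA at -32 to -27, and that of Cst12 has no match to any of the 3. Of the 5 genes with a promoter in the table, which also include Cldn11 and Ctsl, 2 hold a GATA match, 1 a SOX match (Ctsl) and 0 a TATA box match.

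Some arrays stand apart. Ddx25 averaged 822 in KO polysome RNA, against 16869 in WT polysome RNA, and between 3079 and 4234 in the 3 KO cell fractions, against 14054 to 16692 in their WT counterparts. The free-text descriptions of IgG IP array 1, WT polysome arrays 1 and 2 and KO polysome array 1 name another group than their titles, and the titles were followed. WT polysome arrays 1 and 2 and KO polysome arrays 1 and 2 were deposited without scaling, and every array was rescaled to a trimmed mean of 500. The SD of log2 differences between replicate arrays was 0.069 for the KO Leydig pair and 0.086 for the WT Leydig pair. It was 0.445 to 0.714 among polysome arrays, 0.912 between the GRTH IP arrays and 1.11 between the IgG arrays. Effects are log2 differences of signal + 16, given ± SE, and adjusted p-values are limma's over all 9097 genes past a filter on dim genes, with a threshold of 0.05. A gene below that filter is given with its value from the fit over all 18193 genes, and this is said. Shares of genes called count both directions unless a direction is named.

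With the brightest probe set of each gene, all 10 genes had their highest mean of the 4 WT groups outside the IPs in total polysome RNA and their lowest in spermatocytes. Other probe sets of Clu and Sox9 gave other orders. Cst9 had signals of 12975, 18211 and 10615 in WT polysome RNA and 1236 and 1242 in WT Leydig cells. It had 688, 755 and 759 in WT round spermatids and 182, 206, 174 and 179 in WT spermatocytes. The 4 ranges of Cst9 did not overlap, and the order was polysome, Leydig fraction, round spermatids, spermatocytes. Its log2 difference was 6.08 ± 0.15 between WT polysome RNA and WT spermatocytes (adjusted p = 1.74e-10), and 1.90 ± 0.15 between WT round spermatids and WT spermatocytes (adjusted p = 2.08e-07). Between WT Leydig cells and WT round spermatids, neighbours in that order, it was 0.74 ± 0.18 (adjusted p = 0.00318). All contrasts between WT kinds of RNA came from 1 fit of the 4 WT groups, with 1 shared spread a gene. Replicate SDs of log2 differences were 0.481 to 0.714 for WT polysome, 0.148 to 0.266 for WT round spermatid and 0.086 for WT Leydig arrays. The SE and adjusted p of a contrast therefore do not measure the spread of the groups it compares alone.

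Relative to WT polysome RNA, spermatocytes held the smallest shares for the cystatins, Tsx and Cldn11. Cst9 in WT spermatocytes was at 1.33% of its WT polysome mean, Cst12 at 1.35%, Cldn11, the junction gene, at 1.4%, and Tsx at 0.959%, where it lay near the pseudocount of 16. In WT Leydig cells these genes were at 8.89% (Cst9), 11.1% (Cst12), 6.88% (Cldn11) and 14.2% (Tsx). Clu, Aard and Ctsl kept more in the Leydig fraction, with 22.1%, 23.6% and 18.6%. In WT round spermatids the shares of these 7 genes lay between 4.22% (Clu) and 7.92% (Aard). The signals of Clu in the germ cells were 1334, 1043 and 948 in WT round spermatids and 950.0, 964, 1038 and 1016 in WT spermatocytes. Those 2 ranges of Clu overlapped, and the difference of 0.14 ± 0.18 did not pass the test (adjusted p = 0.467). The other 3 probe sets of Clu averaged 502, 785 and 665 in WT round spermatids. They averaged 638, 944 and 881 in WT spermatocytes, each higher and without overlap. With the spread shared by all WT groups they did not pass either (adjusted p between 0.138 and 0.228 over probe sets). No order is therefore given for Clu between these 2 fractions.

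The transcription factor genes did not share 1 pattern. Wt1 averaged 924 ± 355 in WT polysome RNA (SD, n = 3). Its shares of that were 8.96% in WT Leydig cells and 4.5% in WT round spermatids, near those of Cst9. In WT spermatocytes its share was 2.9%, above the 1.33% of Cst9, with signals of 18.1 to 44.6, near the pseudocount of 16. Gata4 had 267, 417 and 108 on the WT polysome arrays and 165 and 152 on the WT Leydig arrays, ranges that overlapped. Its Leydig share was 60%, and the polysome to Leydig difference did not pass (0.51 ± 0.41 over all genes, adjusted p = 0.366). Sox9, the master gene of Sertoli cell fate, was dim everywhere, with 275, 93.8 and 140.3 on the WT polysome arrays and 16.03, 63.5 and 13.01 on the WT round spermatid arrays. Another probe set of Sox9 averaged 23.8 in WT polysome RNA and 49.4 in WT round spermatids, and the last was lowest in WT Leydig cells (1.69). By the brightest probe set, means of Sox9 in the 3 WT cell fractions, between 22.2 and 31.4, did not differ beyond their spread (adjusted p between 0.610 and 0.823 over all genes).

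Cst9, Cst12, Clu, Aard and Ctsl were the 5 genes past the filter in the WT contrasts. In the Leydig fraction 5 of the 5 were higher than in spermatocytes, where 36.1% of all genes tested were called in either direction. Likewise 5 were higher than in round spermatids (67% called). In polysome RNA 5 were higher than in spermatocytes (68.6% called), than in round spermatids (77.9%) and than in the Leydig fraction (53.7%). In WT round spermatids 4 of the 5 were higher than in WT spermatocytes (78.9% called). The smallest of these, Ctsl at 0.45 ± 0.18 (adjusted p = 0.036), lost its call with the replicate number as a block (0.0523). The filter used the mean over all 4 WT groups, to which polysome RNA adds the highest values of these genes. Cst12 was at percentile 49.8 of all genes in WT spermatocytes and at 98.4 in WT polysome RNA. These counts are therefore given as a description. Without the arrays of conflicting description WT polysome RNA is array 3 alone, which is then assumed to vary like the other groups. The difference of Cst9 between WT polysome RNA and WT spermatocytes was then 5.73 (adjusted p = 1.06e-09). Over all genes and all arrays, Gata4 was 1.61 ± 0.35 higher in WT polysome RNA than in WT spermatocytes (adjusted p = 0.00227), in a fit that called 53.3% of genes. With that lone array, Gata4 lost that call (0.62, adjusted p = 0.0815), and Sox9 lost its call of polysome RNA over the Leydig fraction (1.72, adjusted p = 0.103, in a fit that called 38% of genes with all arrays).

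**Figure D1:**
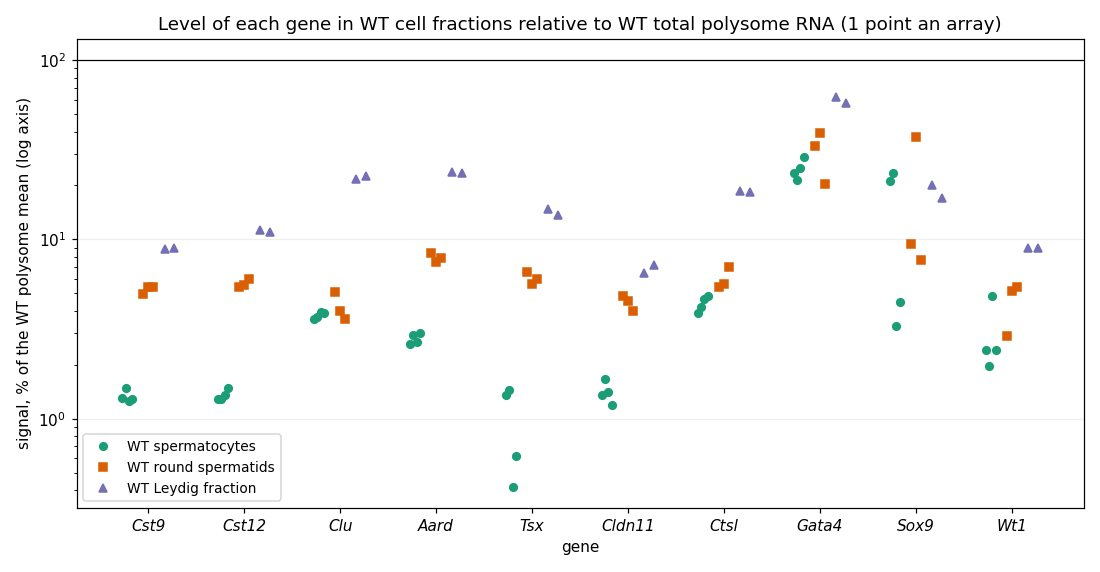
Signal of each of the 10 genes on the WT cell fraction arrays as a percentage of the gene's mean in WT total polysome RNA (log axis; each point is an array; circles, 4 WT spermatocyte arrays; squares, 3 WT round spermatid arrays; triangles, 2 WT Leydig arrays; black line, 100%). Cst9, Cst12, Tsx and Cldn11 fall to about 1% in spermatocytes, whereas Gata4 stays near 24.7%.

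Defining markers of Sertoli cells outside the 10 genes were also read. Rhox5, an androgen-regulated homeobox gene, averaged 2099 in WT polysome RNA and 229 in WT Leydig cells, 210.2 in WT round spermatids and 63.9 in WT spermatocytes. Dhh, the Sertoli hedgehog ligand, averaged 1066 in WT polysome RNA and 67.3 to 78.8 in the 3 WT fractions. Inhbb, an inhibin and activin subunit, averaged 1314 in WT polysome RNA and 32.7 to 73.6 in the fractions. Amh, a hormone that mature Sertoli cells hardly make, averaged 121 in KO and 21.6 in WT polysome RNA, which did not pass the test over all genes (1.72 ± 0.41, adjusted p = 0.1), and 3.33 to 8.62 in the WT fractions. Fshr, the FSH receptor, averaged 122 in WT polysome RNA and 38.9 to 91.3 in the fractions. Rhox5, Dhh and Inhbb were thus bright in polysomes of the testis as a whole and low in the 3 fractions. Amh and Fshr were low throughout. These genes were picked from a list of 27 secreted and signalling genes, which as a whole was not low in the fractions. Its 21 genes on the array summed to a mean of 24265 in WT spermatocytes, 22642 in WT round spermatids and 33979 in WT Leydig cells. The mean sum in WT polysome RNA was 74294.

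In round spermatids the KO lowered the cystatins, Tsx, Clu and Aard, while Ctsl and the transcription factor genes did not pass the test. Cst9 had signals of 297, 295 and 309 on the KO arrays and 688, 755 and 759 on the WT arrays. Cst12 had 248, 317 and 265 on the KO arrays and 592, 606 and 655 on the WT arrays. Every KO array was below every WT array for both cystatins. Cst9 fell by 1.25 ± 0.07 on the log2 scale (adjusted p = 1.17e-05) and Cst12 by 1.12 ± 0.10 (adjusted p = 7.42e-05). In bulk samples such as these, fewer cells of a type and less RNA per cell cannot be told apart.

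Clu, the secreted chaperone, had 618, 554 and 655 in KO round spermatids and 1334, 1043 and 948 in WT round spermatids. Aard, an alanine- and arginine-rich domain protein, had 387, 435 and 487 in KO and 753, 671 and 709.998 in WT round spermatids. The ranges of neither gene overlapped between the genotypes. Clu fell by 0.84 ± 0.13 (adjusted p = 0.00108) and Aard by 0.69 ± 0.10 (adjusted p = 0.000594). The other 3 probe sets of Clu fell too, by 0.39 to 0.76 (adjusted p between 0.000699 and 0.0069 over probe sets).

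Ctsl, the cathepsin L gene, gave 1034, 1140.4 and 1116 on the KO arrays and 977, 1020.4 and 1265 on the WT arrays. The ranges overlapped, with a difference of 0.02 ± 0.11 (adjusted p = 0.879). Tsx was below the filter with 52.6, 56.9 and 43.5 on KO arrays and 130.4, 112 and 120.1 on WT arrays, and over all genes it fell by 1.03 ± 0.11 (adjusted p = 0.00212, or 0.0513 with the closest pairs of arrays averaged). Cldn11, also below the filter, had 70.3, 61.1 and 70.1 in KO and 101, 94.5 and 83.0 in WT round spermatids, ranges that did not overlap. Over all genes Cldn11 fell by 0.39 ± 0.10 (adjusted p = 0.0343), and this call was lost with the replicate number as a block (adjusted p = 0.0671), in the fit over all arrays of the series (0.437) and on leaving out KO array 1, 2 or 3 or WT array 1 or 2 (0.0638 to 0.115). The transcription factor genes, all below the filter, read -0.13 ± 0.22 (Gata4), -0.06 ± 0.20 (Wt1) and 0.11 ± 0.50 (Sox9), and none passed over all genes.

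Of the 5 genes past the filter in round spermatids, 4 were lower and 1 was not called, where 63.4% of all genes tested were called (22.4% lower). In the fit over all genes, which called 31.5%, 2 of the 5 genes below the filter fell. The median of the 10 genes was -0.54, beside 0.15 over all genes tested. Other cell markers moved with these falls. The summed signal of 7 of 9 Leydig cell markers on the array was 1403 to 1642 in KO and 1037 to 1056 in WT round spermatids, and 2 of the 2 tested rose. The 7 macrophage markers summed to 9333 to 10296 in KO and 16238 to 21414 in WT round spermatids, with Aif1, a calcium-binding protein also found in spermatids, as the 1 that fell and 1 other that rose among 5 tested. All 9 elongating spermatid markers fell, and their sum was 176072 to 224676 in KO and 265265 to 367767 in WT round spermatids. The 6 round spermatid markers summed to 69884 to 76703 in KO and 96190 to 113924 in WT round spermatids, with 4 lower and 1 higher. The 7 spermatogonia markers summed to 5060 to 5476 in KO and 3283 to 3639 in WT round spermatids, and 4 of 5 tested rose. The part of these differences in the falls of the Sertoli genes was not tested.

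In spermatocytes the KO effect on the same genes was smaller and mixed. Cst9 had signals of 141, 129.7, 126 and 113 in KO and 182, 206, 174 and 179 in WT spermatocytes, and Clu 1365, 1349, 1258 and 1319 in KO and 950.0, 964, 1038 and 1016 in WT spermatocytes. Neither gene's ranges overlapped, but they went opposite ways. Cst9 fell by 0.49 ± 0.07 (adjusted p = 0.000666) and Clu rose by 0.41 ± 0.05 (adjusted p = 0.000168), as did its other 3 probe sets (0.42 to 0.67). Aard, with 214, 194, 271 and 275 in KO and 236, 262, 242 and 270.0 in WT spermatocytes, overlapped and read -0.09 ± 0.11 (adjusted p = 0.551). Ctsl had 793, 857, 879 and 939 in KO and 696, 753, 838 and 869 in WT spermatocytes, with a difference of 0.14 ± 0.08 (adjusted p = 0.202, or 0.0211 with the replicate block).

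Below the filter in spermatocytes, Cst12 had 103, 113, 128 and 137 in KO and 140.1, 139, 147 and 161 in WT spermatocytes, without overlap, and read -0.26 ± 0.09 over all genes (adjusted p = 0.0984, or 0.041 with the replicate block). Cldn11 gave 65.7, 42.1, 41.8 and 37.2 in KO and 28.1, 34.7, 29.6 and 24.8 in WT spermatocytes, all KO arrays being above all WT arrays, and 0.45 ± 0.14 (adjusted p = 0.0668). Tsx was dim, with 15.5, 5.08, 9.19 and 10.1 in KO and 27.1, 28.6, 8.31 and 12.3 in WT spermatocytes, and read -0.40 ± 0.22 (adjusted p = 0.277). Gata4, Sox9 and Wt1 did not pass either. Of 4 genes past the filter 1 rose and 1 fell, where 37.4% of all genes tested were called (49.5% with the replicate block). Both calls were lost in the fit over all arrays of the series (adjusted p = 0.42 for Cst9 and 0.437 for Clu). Leydig cell markers summed to 9082 to 9995 in KO and 6727 to 7296 in WT spermatocytes, with 6 of 7 higher, and macrophage markers to 2148 to 2311 in KO and 3212 to 3497 in WT spermatocytes, where the 1 tested, Aif1, fell. Their part in these differences was not tested.

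In the Leydig fraction Ctsl, Clu and Gata4 rose in the KO, and Cst12, Cst9 and Tsx fell. The direction of Aard turned with the scaling, Cldn11 and Wt1 did not pass, and the probe sets of Sox9 disagreed. Ctsl had 6128 and 6293 on the KO arrays and 3379 and 3327 on the WT arrays, and Clu 10450.3 and 10026 on the KO arrays and 5685 and 5913 on the WT arrays. Ctsl rose by 0.89 ± 0.02 (adjusted p = 4.29e-05) and Clu by 0.82 ± 0.03 (adjusted p = 0.000115), with 0.83 to 1.14 for the other probe sets of Clu. Cst12 went the other way, with 848 and 837 in KO and 1218 and 1199 in WT Leydig cells, a fall of 0.51 ± 0.02 (adjusted p = 0.000114). Cst9 had 1121 and 1096 in KO and 1236 and 1242 in WT Leydig cells and fell by 0.16 ± 0.02 (adjusted p = 0.00359).

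Aard had 2417 and 2375 in KO and 2128 and 2114 in WT Leydig cells and rose by 0.17 ± 0.02 (adjusted p = 0.00234). With arrays centred on their medians, which lowers the median difference of all genes in this fraction by 0.29, Aard instead fell by 0.12 (adjusted p = 0.00607). Centring also gave -0.453 for Cst9 (adjusted p = 7.06e-05), -0.805 for Cst12 (1.71e-05) and -0.528 for Tsx (0.000307), and 0.592 for Ctsl (4.54e-05), 0.525 for Clu (0.000146) and 0.386 for Gata4 (0.0143). Quantile normalization gave -0.476 for Tsx (adjusted p = 0.00106) and 0.383 for Gata4 (0.0171). Tsx had 231 and 245 in KO and 293 and 273 in WT Leydig cells and fell by 0.23 ± 0.05 (adjusted p = 0.0124), a call lost without KO array 1 (0.0565) and in the fit over all genes (0.0528). Among the 4 genes below the filter, Gata4, which Leydig cells also express, had 273 and 254 in KO and 165 and 152 in WT Leydig cells. Over all genes Gata4 rose by 0.68 ± 0.06 (adjusted p = 0.00782), and its other probe set by 1.04 (0.0298 over probe sets), while its call was lost without KO array 1 (0.0535). Cldn11, with 151 and 156 in KO and 136 and 151 in WT Leydig cells, and Wt1, with 72.6 and 81.8 in KO and 83.2 and 82.4 in WT Leydig cells, did not pass (0.09 ± 0.06, adjusted p = 0.334, and -0.09 ± 0.06, 0.343). The 3 probe sets of Sox9 disagreed, so no direction is given for it. The brightest over the series had 3.31 and 10.7 in KO and 34.0 and 28.9 in WT Leydig cells and read -1.06 ± 0.20 (adjusted p = 0.0307 over all genes, or 0.0767 with the replicate block), another read 1.21 (0.00862 over probe sets) and the last 0.48 (0.23).

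Of the 6 genes past the filter, 3 rose and 3 fell, where 77.9% of all genes tested were called (38.6% higher and 39.3% lower). In the fit over all genes, 2 of the 4 genes below the filter passed, where 47.6% were called. With 2 arrays a group, these tests rest on pairs that differ very little, and in the fit over all arrays of the series Ctsl was the 1 that passed. Leydig cell markers summed to 62429 to 63341 in KO and 33338 to 33408 in WT Leydig cells, and 7 of 7 rose with a median of 1.26. Of 6 macrophage markers tested 5 rose and 1 fell, and the list summed to 10912 to 10986 in KO and 10454 to 10463 in WT Leydig cells. Germ cell markers had signal in this fraction too. Elongating spermatid markers summed to 108423 to 110643 in KO and 155458 to 157060 in WT Leydig cells. The sums of round spermatid markers were 37520 to 38075 in KO and 50741 to 51421 in WT Leydig cells. Those of spermatocyte markers were 63983 to 63997 in WT Leydig cells, beside 65401 to 82955 in WT spermatocytes. The part of these other cells in the levels, rises and falls of the Sertoli genes in this fraction was not tested.

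**Figure D2:**
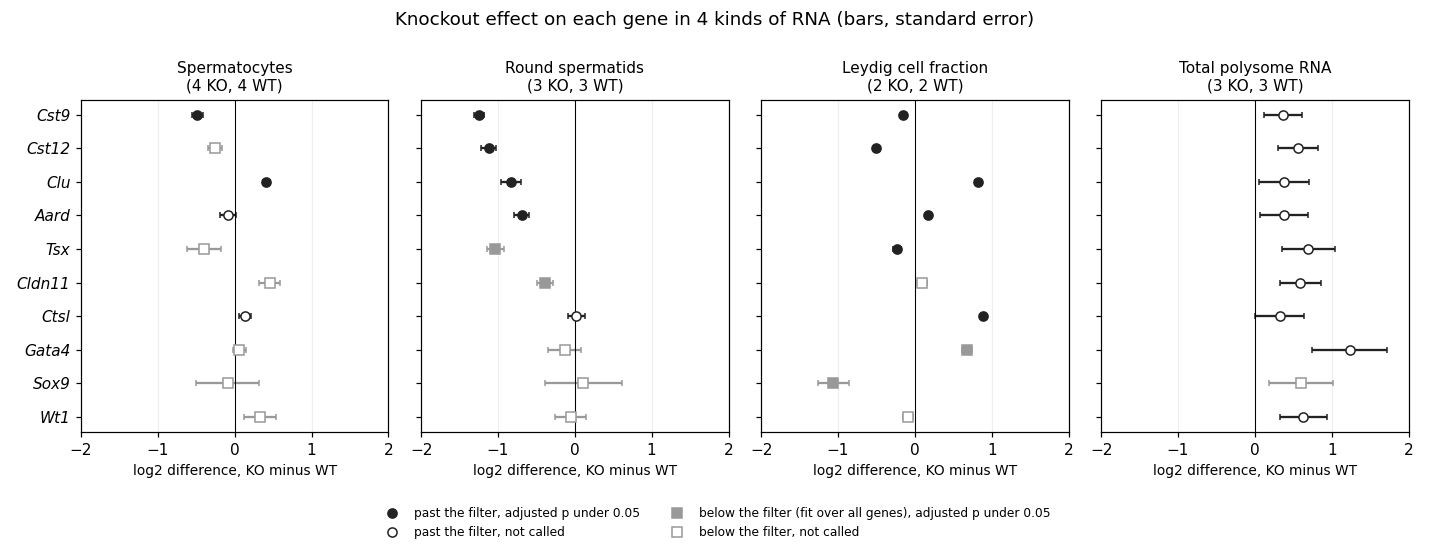
Log2 difference of signal + 16, KO minus WT, for each of the 10 genes (points, with SE bars) in spermatocytes, round spermatids, the Leydig fraction and total polysome RNA; circles are genes past the filter on dim genes, squares are genes below it, and filled symbols have an adjusted p under 0.05. Cst9 and Cst12 lie left of 0 in all 3 cell fractions and right of 0, unfilled, in polysome RNA.

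**Figure D3:**
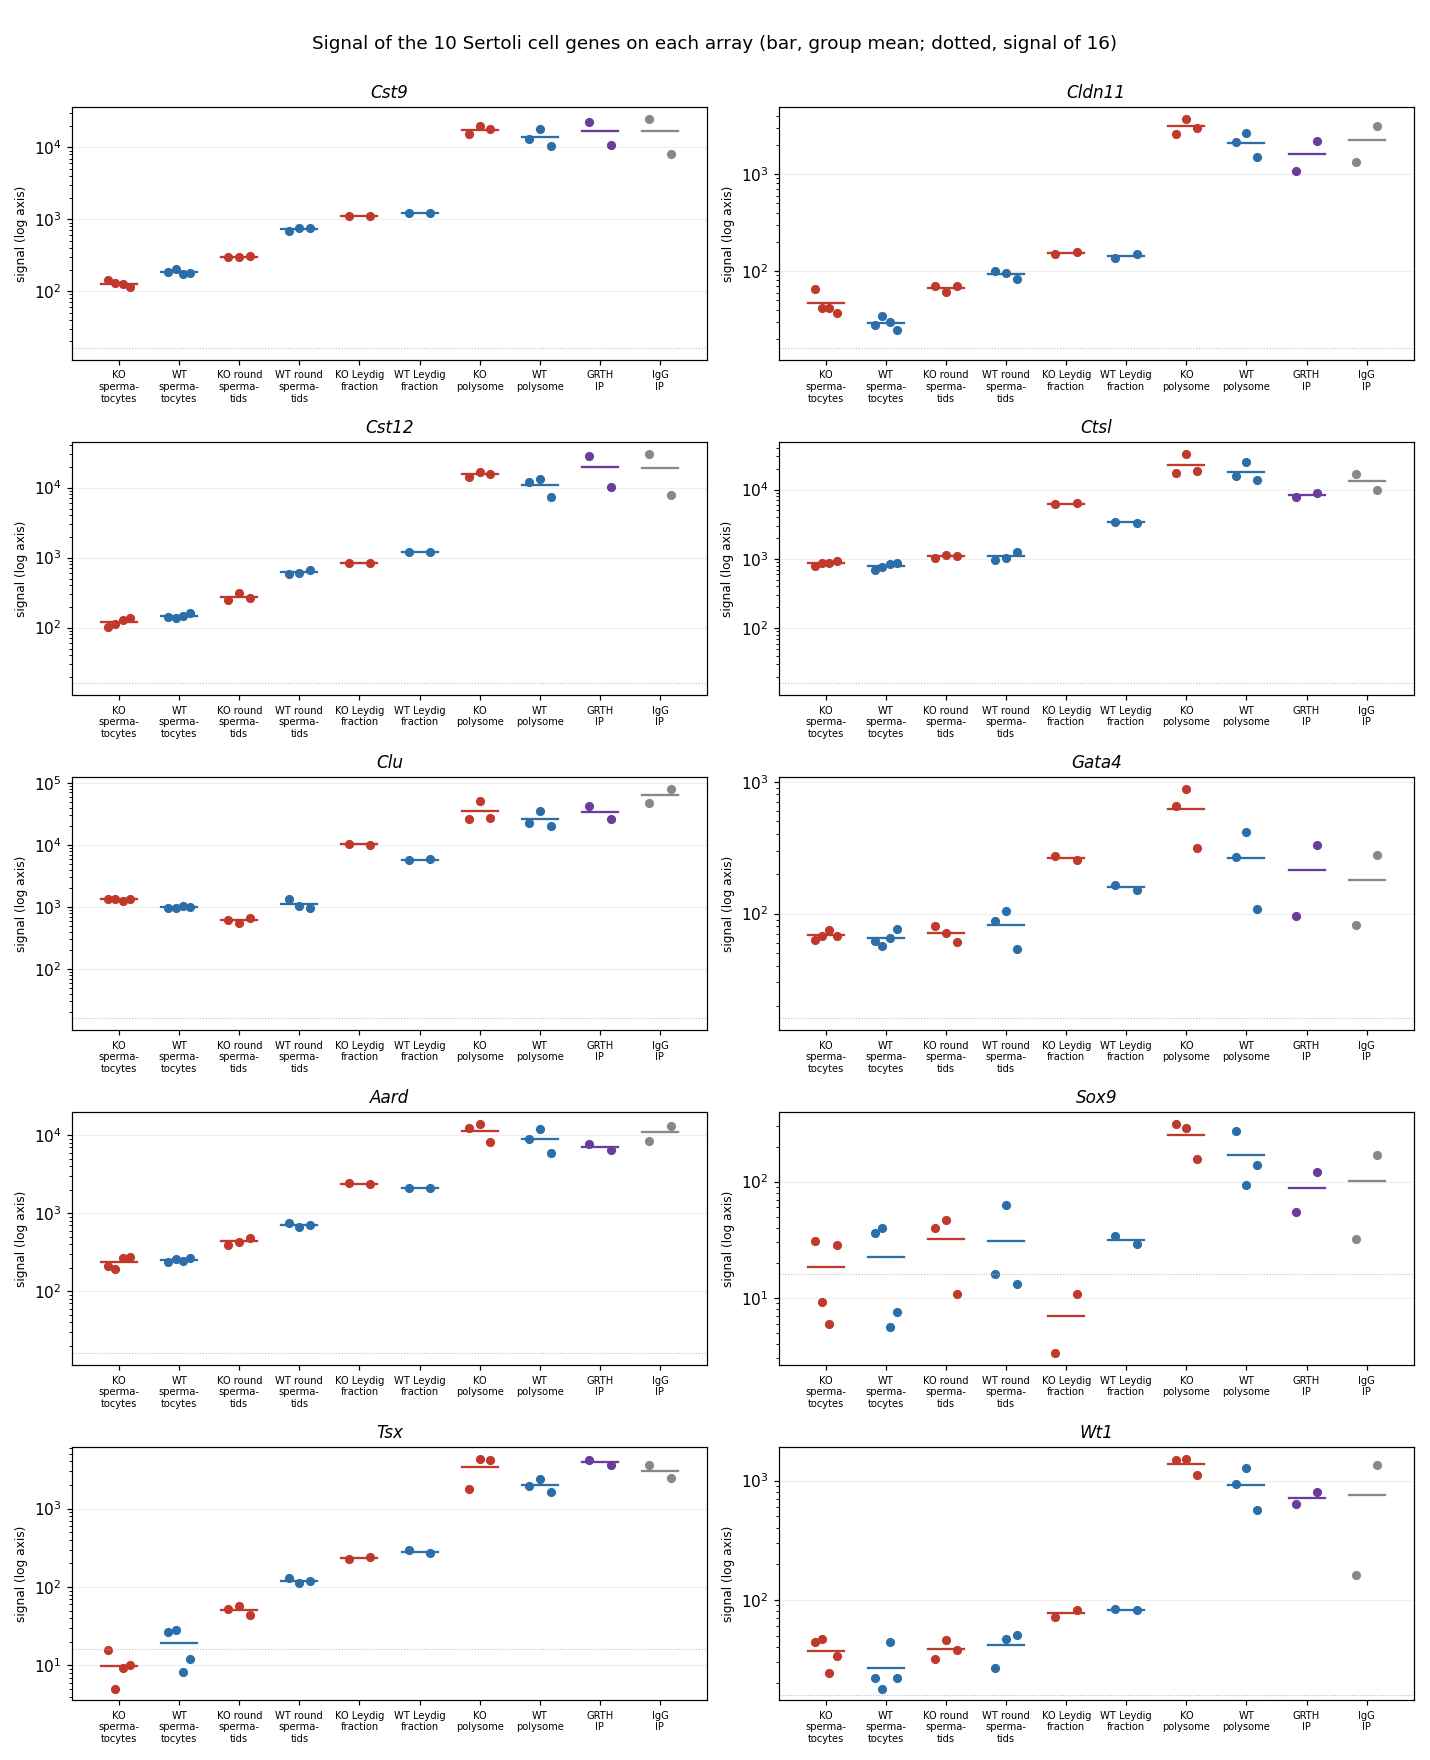
Rescaled signal of each of the 10 genes on every array (log axis; 1 panel a gene, 1 point an array, horizontal bar the group mean, dotted line a signal of 16), with KO left of WT in each kind of RNA and GRTH IP left of IgG IP. The gap between KO and WT round spermatids shows in Cst9, Cst12, Clu, Aard and Tsx, and the Leydig gap in Clu, Ctsl and Gata4.

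In total polysome RNA none of the 10 genes passed the test as fitted without a replicate block or array weights, and 1, Gata4, passed with array weights (adjusted p = 0.0311). All 10 differences were above 0 on the rescaled values. Cst9 had signals of 15269.9, 19774 and 17812 in KO and 12975, 18211 and 10615 in WT polysome RNA, with overlap, and read 0.37 ± 0.25 (adjusted p = 0.453). Cst12 had 14108, 16957 and 15732 in KO and 12061, 13202 and 7289 in WT polysome RNA, without overlap, and read 0.56 ± 0.26 (adjusted p = 0.276). Gata4 had the largest difference of the 10 genes, with 653, 886 and 313 in KO and 267, 417 and 108 in WT polysome RNA, overlapping ranges and 1.24 ± 0.49 (adjusted p = 0.211). Array 3 was the lowest of both genotypes for Gata4. Wt1 had 1486, 1521 and 1123 in KO and 936, 1272 and 564 in WT polysome RNA and read 0.63 ± 0.30 (adjusted p = 0.298). Cldn11, the junction gene, had 2595, 3723 and 2985 in KO and 2110.1, 2665 and 1483 in WT polysome RNA and read 0.59 ± 0.26 (adjusted p = 0.262). Tsx had 1792, 4312 and 4169 in KO and 1915, 2413 and 1634 in WT polysome RNA and read 0.69 ± 0.35 (adjusted p = 0.314). Clu, Aard and Ctsl gave the smaller differences of 0.38 ± 0.32, 0.38 ± 0.31 and 0.33 ± 0.32 (adjusted p between 0.545 and 0.607). All 3 had their highest KO and their highest WT value on array 2. Sox9, below the filter, read 0.60 over all genes (adjusted p = 0.587).

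Of the 9 genes past the filter in polysome RNA 0 passed, where 6.34% of all genes tested were called (0.572% higher). Same-numbered polysome arrays deviated together from their group means, and with the replicate number as a block 5 of the 9 were higher, where 24.7% were called (12.9% higher). These were Gata4 (adjusted p = 0.000125), Wt1 (0.0222), Cldn11 (0.0295), Tsx (0.0436) and Cst12 (0.0484), whereas Cst9 (0.144), Clu (0.105), Aard (0.106) and Ctsl (0.161) did not pass. The called genes included both transcription factor genes tested and the junction gene, and 1 of the 4 genes Cst9, Cst12, Clu and Aard. Whether these kinds of genes differ was not tested. The values of the 4 genes ran from 0.366 (Cst9) to 0.565 (Cst12), beside 0.593 for Cldn11, 0.629 for Wt1 and 1.24 for Gata4. The median of the 10 genes was 0.58, beside 0.13 over all genes tested. Without the 3 arrays of conflicting description, which leaves WT polysome array 3 alone and assumes that it varies like the other group, 0 passed, and the values were 0.82 for Cst9, 1.16 for Cst12, 0.87 for Clu and 2.13 for Gata4 (adjusted p between 0.0803 and 0.351). With the deposited, partly unscaled values, those of Cst9, Clu, Aard and Ctsl turned to between -0.09 and -0.03.

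Cell type markers of polysome RNA are given beside these values. Leydig cell markers summed to 43208 to 70479 in KO and 23408 to 43690 in WT polysome RNA, and the 7 tested had a median of 0.95, with 0 called, or 6 with the replicate block. Elongating spermatid markers summed to 26251 to 51334 in KO and 190437 to 398532 in WT polysome RNA, and 9 of 9 fell, with a median of -2.69. The 10 Sertoli genes summed to 91862 to 145483 in KO and 61801 to 110977 in WT polysome RNA. Macrophage markers summed to 3273 to 6955 in KO and 7804 to 8981 in WT polysome RNA, and of 4 tested 1, Aif1, fell. The mean sum of this list was higher in WT round spermatids (19199.5) than in WT Leydig cells (10458.3). It is therefore not read as the level of macrophages alone. Round spermatid markers summed to 27261 to 34500 in KO and 43342 to 60014 in WT polysome RNA, and 2 of 6 fell. The part of the other cells' markers in the values of the Sertoli genes was not tested.

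**Figure D4:**
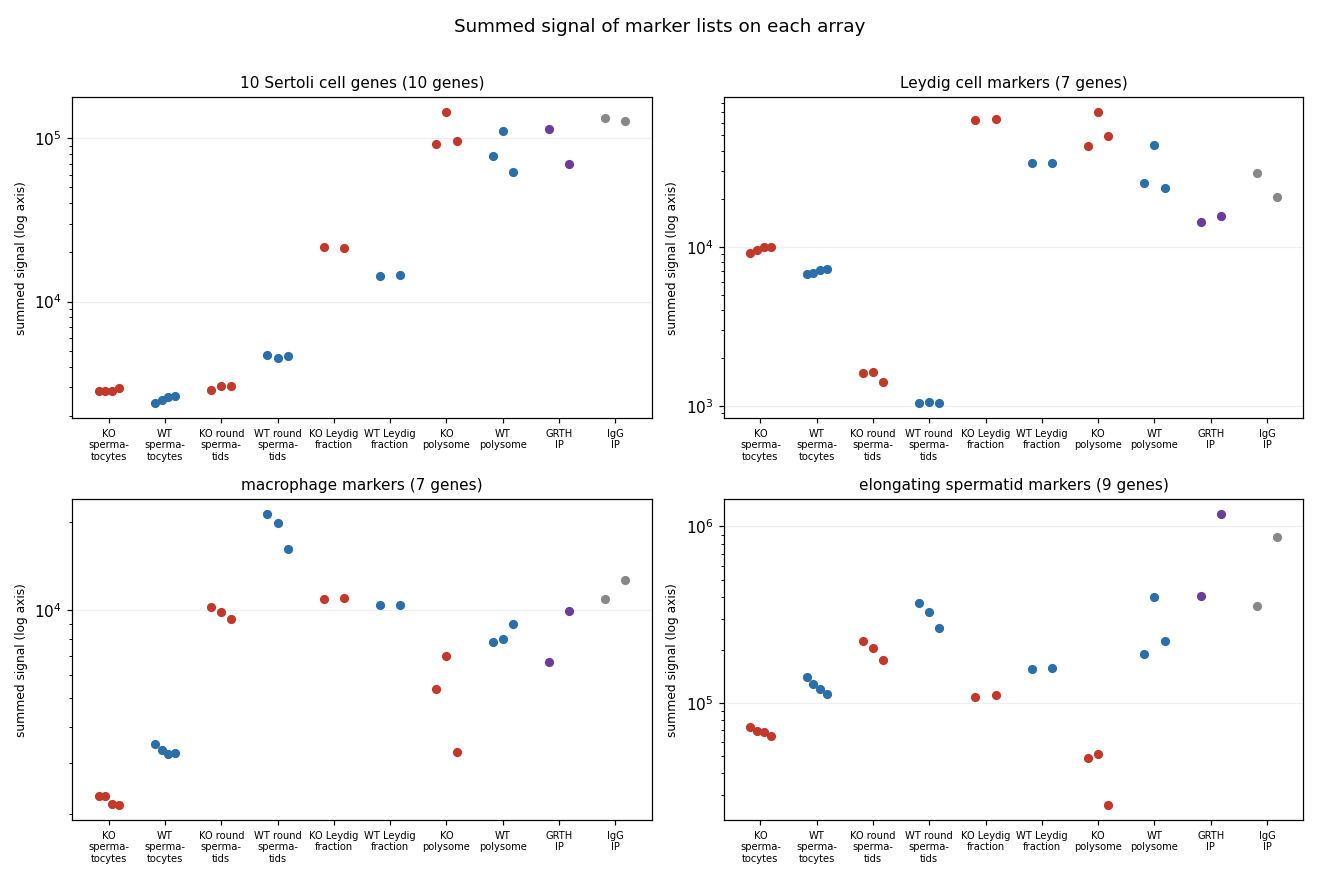
Summed signal on each array (log axis; 1 point an array) of the 10 Sertoli genes, 7 Leydig cell markers, 7 macrophage markers and 9 elongating spermatid markers, with KO left of WT and GRTH IP left of IgG IP. Sertoli and elongating spermatid sums are lower in KO than in WT round spermatids, and elongating spermatid sums are lower in every KO group. The macrophage list includes Aif1, which is also found in spermatids.

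The KO effect itself differed between kinds of RNA. These differences share arrays with the comparisons above and with each other. Between round spermatids and spermatocytes, the KO effect was lower in round spermatids by 0.76 for Cst9 (adjusted p = 6.71e-05), 0.86 for Cst12 (adjusted p = 0.0002), 1.24 for Clu (1.22e-05) and 0.60 for Aard (0.00697). Ctsl did not differ beyond its error (-0.12 ± 0.14). These were 4 of 5 genes past the filter, where 46% of all genes tested were called. Cst12, below the filter in spermatocytes, passed it here through round spermatids, so the count is given as a description. Over all genes Cldn11 was lower too (-0.84, adjusted p = 0.00811, in a fit that called 22.3%).

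The effect in the Leydig fraction was higher than that in spermatocytes for Ctsl (0.75, adjusted p = 0.00104), Clu (0.41, adjusted p = 0.00184) and Cst9 (0.33, adjusted p = 0.0444), where 28.1% were called. Gata4 was higher too over all genes (0.62, adjusted p = 0.015, in a fit that called 15%). With arrays centred on their medians those of Clu (0.14, adjusted p = 0.164), Cst9 (0.06, 0.636) and Gata4 (0.35, 0.115) lost their calls, while that of Cst12, otherwise -0.25 (adjusted p = 0.166), passed at -0.52 (0.0099) and also with the replicate block (0.026, where 42.2% were called). For Clu, 1 of the other probe sets did not pass either (0.16, adjusted p = 0.123 over probe sets), and Gata4 lost its call without KO Leydig array 1 (0.0759) or WT Leydig array 2 (0.0762). The call of Cst9 was also lost without any of 10 of the 12 arrays (adjusted p between 0.0509 and 0.142).

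For Cst9, Cst12 and Tsx the KO effect read above 0 in polysome RNA, without passing the test there, and below 0 in round spermatids. The KO effect was higher in polysome RNA by 1.61 for Cst9 (adjusted p = 0.00862), 1.68 for Cst12 (adjusted p = 0.0104) and 1.73 for Tsx (adjusted p = 0.0398), and 3 of 8 genes passed, where 2.79% of all genes tested were called (0.539% higher). Clu (1.21, adjusted p = 0.106), Aard (1.07, 0.125) and Cldn11 (0.98, 0.0866) passed with the replicate block (0.00834, 0.00866 and 0.0202, where 15.4% were called) and without the 3 arrays of conflicting description (0.0281, 0.023 and 0.00597). The WT polysome group of that last fit is array 3 alone, assumed to vary like the other groups. Tsx, Cldn11 and Wt1 passed the filter here through polysome RNA, where they are high, so the count of genes is given as a description. Wt1 (0.68, adjusted p = 0.357) and Ctsl (0.30, adjusted p = 0.702) did not pass. The call of Tsx was lost in the fit over all genes (adjusted p = 0.117) and without any of 10 of the 12 arrays (0.058 to 0.11).

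None of the 10 genes passed the test between the GRTH IP and the IgG IP. Cst9 had signals of 22745 and 10657 in the GRTH IP and 25278 and 8154 in the IgG IP, and Cst12 28566 and 10331 in the GRTH IP and 30599 and 7841 in the IgG IP. In both antibodies array 1 gave the higher value of both cystatins, and the ranges overlapped. Cst9 read 0.12 ± 0.72 and Cst12 0.15 ± 0.78 (adjusted p = 0.993 each). Clu had 41688 and 26458 in the GRTH IP and 46614 and 80575 in the IgG IP, without overlap, and read -0.88 ± 0.62 (adjusted p = 0.977). Wt1, with 631 and 799 in the GRTH IP and 163 and 1339.5 in the IgG IP, had both its lowest and its highest value in the IgG pair. Of 8 genes past the filter limma called 0, as of all 9097 genes tested (0%), of which 364 had an unadjusted p under 0.05 and 65 passed with the replicate block, 0.715% of the genes tested and 0 of the 8. Without IgG array 1 the values of Cst9, Cst12 and Wt1 were 0.93, 1.13 and -0.90 (adjusted p = 0.999).

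Genes with the profile of Cst9 were looked for over the 10 group means of log2 signal, among 14668 genes that reached a mean signal of 100 in some group. Cst12 had the highest Pearson r (0.998) and Tsx the next (0.9963). Cldn11 (0.9837), Aard (0.9803) and Wt1 (0.9628) came before Ctsl (0.9437), Clu (0.9364), Sox9 (0.8445) and Gata4 (0.7773). Outside the list the 5 nearest were Gatm, a creatine synthesis enzyme (0.9947), Gprasp2 (0.9888), Rhox5 (0.9879), Etl4 (0.9876) and Gpm6b (0.9865). The 10 means include polysome, IP and cell fraction groups that share cells and depth, so these are descriptions of 1 large rise from fractions to polysomes. In round spermatids Rhox5 averaged 60.7 in KO and 210.2 in WT and fell by 1.58 ± 0.30 over all genes (adjusted p = 0.0123, or 0.0576 with the replicate block), and in the Leydig fraction it fell by 0.23 ± 0.02 (adjusted p = 0.000914).

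Within arrays, the log2 signal of the Cst9 probe set minus that of the Cst12 probe set had group means between -0.14 and 0.39. The same difference for Clu minus Cst9 ran from 0.57 in WT round spermatids to 3.23 in KO spermatocytes, and for Ctsl minus Cst9 from -0.90 in the GRTH IP to 2.62 in KO spermatocytes. These values serve to compare groups, not the levels of the genes. Relative to Cst9, Clu and Ctsl thus had more signal in spermatocytes and Leydig cells than in polysome RNA, where the mean differences were 0.92 and 0.32 in KO and 0.91 and 0.36 in WT.

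Of 11 further cystatin genes listed, 7 were on the array and 3 were past the filter in each KO comparison. Cst13, the gene next to Cst9, averaged 988 ± 316 in KO and 4842 ± 482 in WT polysome RNA (SD, n = 3) and fell by 2.32 ± 0.26 (adjusted p = 0.000745). It also fell in KO spermatocytes (0.75 ± 0.05, adjusted p = 7.23e-06), round spermatids (0.93 ± 0.07, adjusted p = 4.61e-05) and Leydig cells (0.72 ± 0.02, adjusted p = 3.99e-05). Cst13 averaged 4901 in WT round spermatids. Cst3, the widespread cystatin C, averaged 10031 in KO and 5752 in WT Leydig cells and rose there by 0.80 ± 0.02 (adjusted p = 3.71e-05), as did Cstb, the intracellular cystatin B (1.23 ± 0.02, adjusted p = 2.38e-05). In KO polysome RNA neither passed.

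The 13 further cathepsin genes do not all encode cysteine proteases. Of these genes, 10 of 10 past the filter rose in the KO Leydig fraction, where 77.9% of all genes tested were called (38.6% higher). Their median was 1.30, beside -0.01 over all genes. The aspartic protease Ctsd rose there by 1.26 ± 0.02, Ctsh by 1.52 ± 0.02 and Ctsb by 1.15 ± 0.02. Ctsl rose by 0.89. In polysome RNA, where 6.34% were called (0.572% higher), 1 of 10 rose, Ctse (1.10 ± 0.26, adjusted p = 0.0389). With the replicate block 5 did, where 24.7% were called (12.9% higher). In spermatocytes (37.4% called) 2 of 6 rose and 2 fell, and in round spermatids (63.4% called, 22.4% lower) 4 of 7 rose.

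Other Sertoli genes were taken from lists of secreted and signalling proteins, transcription factors and junction proteins. In KO polysome RNA 0 of 18 secreted or signalling genes passed, 0 of 8 transcription factor genes and 0 of 17 junction genes. With the replicate block 9, 3 and 6 were higher and 0 lower, where 12.9% of all genes tested were higher. Among them were Sparc, a matrix protein (0.78 ± 0.35, adjusted p = 0.00595 with the block), Nr5a1, a steroidogenic factor also of Leydig cells (1.12 ± 0.47, 0.000364) and Ctnnd1, the catenin p120 (1.00 ± 0.29, 0.00157). The SE of these genes are from the fit without the block, and their adjusted p-values from the fit with it. The medians were 0.54, 0.49 and 0.34, all above the 0.13 of all genes tested.

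In round spermatids, where 63.4% of all genes tested were called and 22.4% were lower, these lists held genes of both directions. Of 6 secreted or signalling genes 2 rose and 1 fell, namely Slc16a1, a lactate carrier (0.44 ± 0.08, adjusted p = 0.00209), Slc2a3, a glucose carrier (0.38 ± 0.11, 0.0198), and Inha, the inhibin alpha subunit, which averaged 199 in KO and 295 in WT round spermatids (-0.52 ± 0.12, 0.00642). Of 4 transcription factor genes 1 rose, Dmrt1 (0.75 ± 0.07, adjusted p = 7.45e-05), and 1 fell, Emx2 (-1.13 ± 0.11, 0.000128). Of 11 junction genes 5 rose and 1 fell. Cdh2, N-cadherin, which germ cells make too, rose by 1.80 ± 0.09 (adjusted p = 8.62e-06) and Ctnnd1 by 1.55 ± 0.15 (0.000115), while Vcl, vinculin, was the 1 that fell (-0.30 ± 0.07, 0.00604).

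In spermatocytes, where 37.4% of all genes tested were called, 2 of 7 secreted or signalling genes rose (Aldh1a1, a retinoic acid synthesis enzyme, by 0.59 ± 0.10, adjusted p = 0.00134, and Slc16a1 by 0.29 ± 0.06, 0.00604). There 1 of 3 transcription factor genes fell (Emx2, by 0.99 ± 0.05, adjusted p = 1.41e-06), and of 9 junction genes 5 rose and 2 fell. In the Leydig fraction, where 77.9% were called (38.6% higher), 9 of 11 secreted or signalling genes rose and 2 fell, and Kitl, the KIT ligand, averaged 1097 in KO and 431 in WT Leydig cells (1.31 ± 0.02, adjusted p = 2.38e-05). Of 5 transcription factor genes 2 rose and 2 fell, with Nr5a1 at 0.96 ± 0.09 (adjusted p = 0.00101) and Emx2 at -1.52 ± 0.03 (2.6e-05). Of 12 junction genes 9 rose and 3 fell, with the gap junction gene Gja1 at 1.32 ± 0.02 (adjusted p = 2.38e-05). Several of these genes, among them Nr5a1, Gja1 and Aldh1a1, are also known in Leydig cells.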

How the data were processed

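Expression had been measured on 28 one-colour arrays of 45101 probe sets. The deposited values were linear signal intensities that the authors made with GCOS, per the submitters' processing notes, with no version given in the sources used here. Taken from the values, 24 columns had been scaled by the authors to a trimmed mean of 500 and 4 polysome columns had not, so every array was rescaled to 500 (trim 0.02 at each end), which the planned fits had not assumed. Signals were taken as log2(signal + 16). The probe set with the highest mean stood for a gene, among 34945 with 1 gene symbol, while 932 name several genes, 9160 none, and 64 controls were left out. Of those with 1 symbol, 34741 matched the RefSeq table (GRCm38.p6) by gene number. For each comparison, genes at or above the median of the 18193 mean log2 signals on its own arrays (9097) were fitted with limma 3.58.1 (lmFit, eBayes, R 4.3.3) with Benjamini-Hochberg adjustment and a threshold of 0.05. KO was tested within each kind of RNA. Between WT kinds of RNA 6 contrasts were made, in 1 fit of the 4 WT groups with a shared spread. Tests of 3 differences between KO effects each used 1 fit of the 4 groups concerned. No depth exists for arrays, and their number limits the precision.

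Same-numbered samples were checked for shared deviations. They correlated at 0.436 to 0.668 in polysome RNA, 0.26 to 0.386 in spermatocytes and 0.138 to 0.247 in round spermatids, and at 0.0277 in the Leydig fraction. By a limit of 0.1, the numbers were taken to pair the arrays of the first 3, from the data and not from the labels, and values with the number as a block are printed where they change a call.

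Alternatives were the deposited scale, quantile normalization, centring on the median, pseudocounts of 1 and 64, no filter, a filter at the 70th percentile, fits by probe set, over all arrays or with array weights, averaging of the closest arrays, and leaving out each array. Leaving out arrays of conflicting description was in part added after seeing the data, as was the use of the fit over all genes for genes below the filter. The members and gene lists were chosen with earlier results of these data known. Outside the members, up to 4 genes a list and comparison with the smallest adjusted p could be named, with their counts given for all. Rhox5, Dhh, Inhbb, Amh and Fshr were named as defining markers of Sertoli cells and not by this rule. The code was tested on simulated data.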

Additional observations from a re-analysis of the deposited data

Results flagged for a closer look

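Wt1 on WT spermatocyte array 3, at 44.6, lay far from the other 3 arrays of its group. It was the 1 such case in 20 gene and group combinations examined, where chance gives about 1 in 20.

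Of 30 tests of whether the KO effect differed between kinds of RNA, 12 passed. Between round spermatids and spermatocytes these were Cst9 (-0.76), Cst12 (-0.86), Clu (-1.24), Aard (-0.60) and, over all genes, Cldn11 (-0.84). There 46% of all genes tested were called, or 22.3% in the fit over all genes. Clu and Cldn11 lay above 0 in spermatocytes and below 0 in round spermatids, and Cst9, Cst12 and Aard below 0 in both. Between the Leydig fraction and spermatocytes the genes that passed were Cst9 (0.33), Clu (0.41), Ctsl (0.75) and, over all genes, Gata4 (0.62). There 28.1% of all genes tested were called, or 15% in the fit over all genes. With arrays centred on their medians, only Ctsl of these genes kept its call. Between polysome RNA and round spermatids the genes that passed were Cst9 (1.61), Cst12 (1.68) and Tsx (1.73), where 2.79% of all genes tested were called. Each of them lay above 0 in polysome RNA and below 0 in round spermatids.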

How the results depend on the processing

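For the KO effects, values of single genes under the alternatives kept their direction and their side of the threshold in 151 of 161 cases in polysome RNA, 73 of 76 in spermatocytes, 103 of 119 in round spermatids and 99 of 115 in the Leydig fraction, and in 109 of 119 between the GRTH IP and the IgG IP. The replicate block raised the genes called in polysome RNA from 0 to 5, and array weights to 1. With the deposited values, 4 genes turned below 0 in polysome RNA: Cst9 (-0.045), Clu (-0.0349), Aard (-0.0344) and Ctsl (-0.0878). In spermatocytes the 2 calls became 0 in the fit over all arrays, and they ran from 1 to 2 without single arrays. The call of Clu alone was left with the filter at the 70th percentile, without WT array 1 and without WT array 2. In these settings Cst9 lay below the filter and was not tested. In round spermatids the filter at the 70th percentile left 1 call of 4, that of Clu. Cst9, Cst12 and Aard lay below that filter and were not tested, and they kept their calls in every other alternative. Ctsl there turned to -0.144 with quantile normalization, -0.0954 with centring and -0.0295 with the closest arrays averaged, and ran from -0.0513 to 0.132 without single arrays. In the Leydig fraction the fit over all arrays left 1 call of 6, and Aard turned to -0.119 with centring. Between the GRTH IP and the IgG IP, the fit over all arrays called 1 gene, Clu, and 2529 of all 9097 genes tested. With centring Cst9 read -0.0511 and Cst12 -0.0187. Without single arrays Cst9 ran from -0.699 to 0.932, Cst12 from -0.832 to 1.13, Cldn11 from -1.02 to 0.203 and Wt1 from -0.901 to 2.02. Among WT groups the fit without a filter on dim genes tests all 10 genes. It called 10 between polysome RNA and spermatocytes (53.3% of all genes called) and 9 between polysome RNA and the Leydig fraction (38%). Between polysome RNA and round spermatids it called 10, where 10481 of all 18193 genes were called. Between the Leydig fraction and spermatocytes it called 8, where at most 5688 of the 18193 were called. The difference of the KO effect of Aard between the Leydig fraction and spermatocytes turned to -0.00515 with centring. For polysome RNA minus round spermatids, 3 calls became 6 with quantile normalization, with the replicate block and without the arrays of conflicting description (WT polysome array 3 alone), and ran from 2 to 6 without single arrays, 6 being without WT polysome array 2. Except where said, the cause was not tested.

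Over all genes the calls also moved. In polysome RNA 577 genes passed, 2248 with the replicate block, 0 with the deposited values, and 383 to 718 without single arrays. The alternatives gave 445 to 4505 against 3404 in spermatocytes, 2331 to 7031 against 5765 in round spermatids and 841 to 8659 against 7087 in the Leydig fraction. Centring lowered the median difference of all genes by 0.29 in the Leydig fraction, 0.13 in polysome RNA and 0.12 in round spermatids. The block in the Leydig fraction, whose numbers do not pair arrays, left 6 of the 6 calls. The block changed no other call among the KO effects than those named with it. Signals near the pseudocount, as for Tsx and Wt1 in spermatocytes and for Sox9, limit what can be read there.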
